A study of Mus musculus with 64 samples.

Results

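Tac1, Clu, Muc15 and Ces1d are 4 mouse genes whose signal was higher in the developing cochlea, the hearing part of the inner ear, than in its vestibular part, which senses balance and movement. For Ces1d this held from E11.5 on, and at E10.5 and E11 its cochlear signal was the lower one. The 4 genes were selected on the measured signal difference between cochlear and vestibular arrays, so the difference itself is described here without a test. They are 4 of 12393 genes that a probe set with a single gene symbol represents on the array, and of the 9352 genes that could be tested. The array reads them with 9 probe sets, 1 for Tac1, 4 for Clu, 1 for Muc15 and 3 for Ces1d, and all 9 passed the filter on low signal.

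Tac1 encodes the precursor of the tachykinin peptides substance P and neurokinin A, which are cut out of it by proteases and act on G protein-coupled receptors, and it is best known from sensory neurons. Clu encodes clusterin, a secreted glycoprotein that binds unfolded proteins and lipids and is taken up by receptors of the LDL receptor family. Muc15 encodes a mucin that spans the cell membrane, and Ces1d encodes a carboxylesterase that hydrolyses ester bonds of lipids and drugs and is best known from liver and fat. All 4 products are either secreted or lie in the secretory pathway or at the cell surface.

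The RNA came from CBA/J mouse embryos and was measured on 64 arrays, 2 for each of 32 groups, with each array holding a separate pool of tissues and the 2 pools of a group coming from different litters. Inner ear epithelium, freed from the tissue around it with dispase, makes up 58 arrays. Of these, 6 hold whole ears (placode at E9, vesicle at E9.5 and E10) and 20 hold the cochlea at 10 stages from E10.5 to E15. Vestibular tissue comes as the vestibular organ, taken without its endolymphatic duct, from E10.5 to E12 (8 arrays), and from E12.5 to E15 as saccule (12 arrays) and as utricle joined with 3 ampullae (12 arrays). The other 6 arrays hold the tissue that surrounds the ear, from E9, from a pool of E9.5 to E10.5 and from a pool of E11 to E15. Dispase acted for 8 to 10 minutes up to E10.5 and for 20 to 25 minutes from E11 on, so a step from E10.5 to E11 and a change of dispase time cannot be told apart. The embryos carried no transgene or treatment according to the labels.

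Values are signals as the authors deposited them, on a linear scale with a floor of 10 on each array, and pairs of values are given as replicate 1 and replicate 2. Fitted changes are differences of log2(normalised signal + 16) with their standard error (SE), which understate the change of a low gene. A gene was called when limma's Benjamini-Hochberg adjusted p over all 9352 genes was below 0.05 and the change was at least 1 log2. For a trend, the change is the fitted slope over the stages times the days spanned. The arrays that chose the genes also enter the tests of these genes within the cochlea and the vestibular tissues. The p-values and calls of those tests are therefore not independent of the choice, and they weigh a change against its spread only. A bulk signal cannot tell fewer cells of a type from less RNA per cell.

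Marker genes followed the labels of the dissection in part. Of 10 epithelial markers, 10 were higher in the inner ear than in the surrounding tissue of E11 to E15 (background 8.15 percent of genes). Their summed normalised signal was 6811 to 11000 in the cochlea and 356.7 to 1524 around the ear. Of 11 measured cochlear and ventral otic markers, 3 were higher in the cochlea than in the vestibular organ (background 0.535 percent of genes), 6 than in the utricle with ampullae (background 1.2 percent) and 2 than in the saccule (background 1.67 percent). Otx2, a homeobox gene of the ventral ear, was among the 3 and the 6 but not the 2, at 2.01 log2 (SE 0.12), 3.84 (SE 0.10) and -0.27 (SE 0.10). Of 11 vestibular and dorsal otic markers, 4 were lower and 0 higher in the cochlea than in the vestibular organ (background 0.877 percent of genes lower), 3 lower and 2 higher than in the utricle with ampullae (1.87 percent lower), and 2 lower and 4 higher than in the saccule (2.11 percent lower). Irx3 and Irx5, homeobox genes, were the 2 and among the 4, with Irx3 at 3.26 and 3.23 log2.

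The stretch just before the transcription start is shown for Tac1 only, because RefSeq's promoter table held 1 of the 4 members. The 250 bases lie on the plus strand at chr6:7554811-7555060 of GRCm38.p6. Capitals mark, on either strand, AGATAA, the motif of the GATA factor family, GGGCGG, a GC box, and TGACG, part of the cAMP response element.

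Tac1 promoter: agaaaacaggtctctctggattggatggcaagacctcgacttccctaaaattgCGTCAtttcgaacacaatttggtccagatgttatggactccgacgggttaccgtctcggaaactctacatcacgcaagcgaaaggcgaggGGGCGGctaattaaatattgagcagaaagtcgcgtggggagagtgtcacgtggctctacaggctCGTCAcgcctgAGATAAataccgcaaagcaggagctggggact

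AGATAA begins 32 bases before the start, on the same strand as the gene, and 9.97 percent of 32536 promoter windows of this length hold it. GGGCGG begins 107 bases before it and is in 33 percent of windows. TGACG is there at 2 places on the opposite strand, 43 and 197 bases before the start, and is in 17.9 percent of windows. CCAAT occurs once (33.8 percent of windows) and CANNTG, an E-box, at 2 places (66.2 percent). TATAAA (12.3 percent), TAATCC, the OTX motif (6.25 percent), and the SOX motifs ACAATG (10.47 percent) and AACAAT (9.35 percent) were not among these letters. The motifs were searched on both strands, none of the matches marked in capitals overlaps another, and a match is a description of the letters only.

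**Figure D1:**
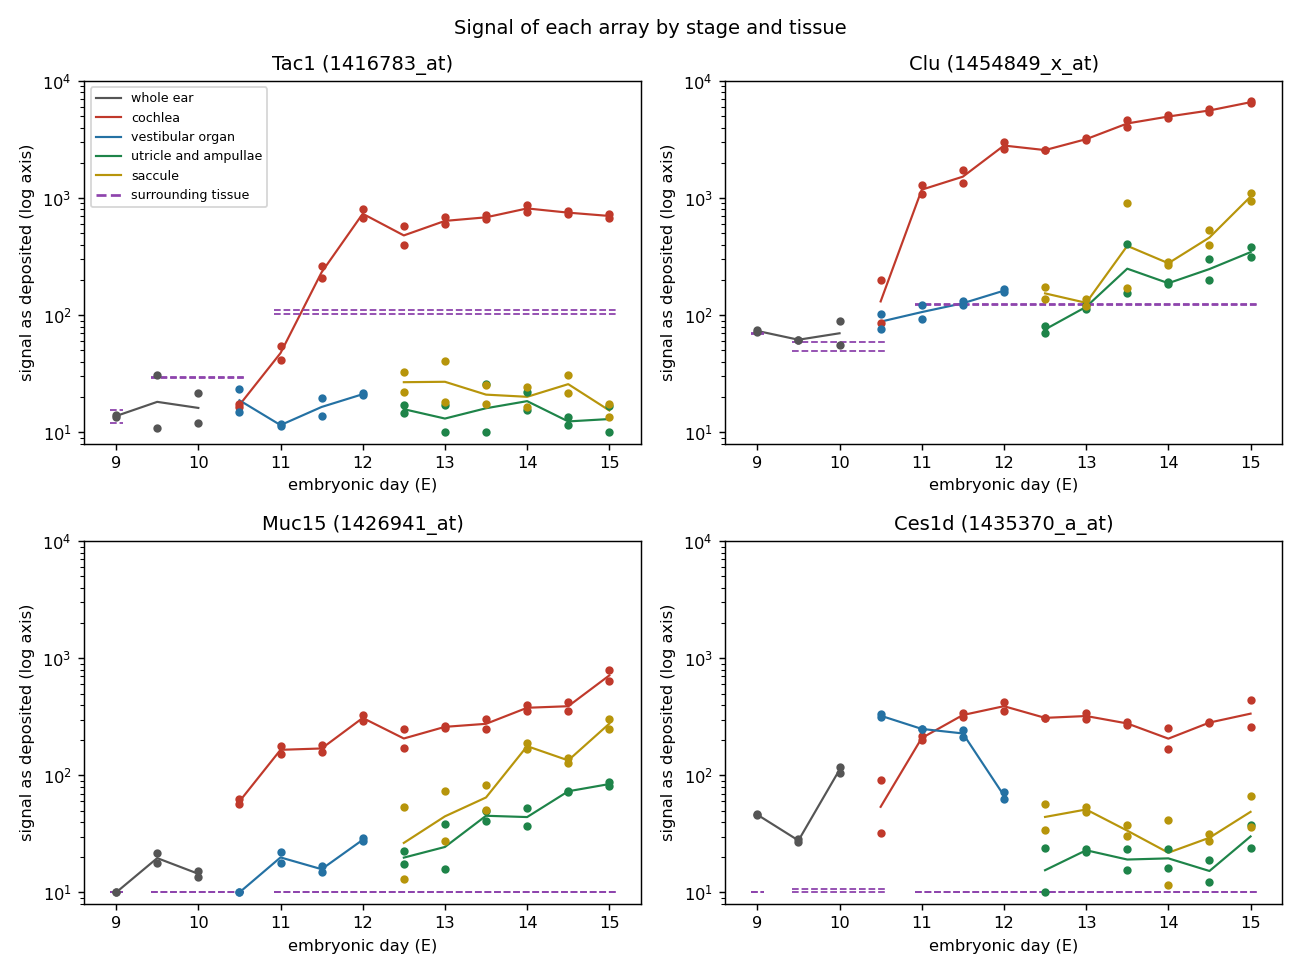
Deposited signal (log axis) of the representing probe set of each gene against embryonic day, with 1 point per array, lines through the 2 arrays of each group (geometric mean) and dashed lines for the 2 arrays of each surrounding tissue group. Cochlear Tac1 climbs from 18 and 17 at E10.5 to 673 and 804 at E12 while the vestibular tissues stay at 40 or below, and Ces1d falls in the vestibular organ over the days on which it rises in the cochlea.

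Tac1 rose in the cochlea between E10.5 and E12 and changed in no other inner ear tissue by the test. Cochlear signal was 18 and 17 at E10.5, 55 and 41 at E11, 263 and 206 at E11.5, and 673 and 804 at E12. Each of these stages stood clear of the one before it. The fitted rise was 4.54 log2 (SE 0.21), or 23.2-fold, with a limma adjusted p of 8.78e-19, in a comparison in which 4.04 percent of genes rose. These cochlear arrays are among those that chose the gene, so this p is not independent of the choice. The steps between stages were 1.22, 1.69 and 1.57 log2, the first across the change of dispase time and the later ones after it.

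After E12 cochlear Tac1 formed a plateau. Signal was 576 and 400 at E12.5, 685 and 596 at E13, 712 and 660 at E13.5, 758 and 879 at E14, 725 and 779 at E14.5, and 676 and 733 at E15. The trend from E12.5 to E15 was 0.48 log2 (SE 0.19, limma adjusted p 0.0581) and was not called, where 3.42 percent of genes rose. The E12.5 arrays were the lowest of the plateau, 0.59 log2 below E12, and the arrays of the other stages overlapped in part. Clu, Muc15 and Ces1d also stepped down in the cochlea from E12 to E12.5, by -0.33, -0.56 and -0.31 log2. The highest signal on a cochlear array was 9660 to 10969 up to E12 and 13291 to 14691 from E12.5 on. The part of this array difference in the shared step was not tested.

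In the other ear tissues Tac1 lay near the floor. The placode read 14 and 13, and the vesicle 31 and 11 at E9.5 and 12 and 22 at E10. The vestibular organ read 15 and 23 at E10.5, 12 and 11 at E11, 14 and 20 at E11.5, and 21 and 21 at E12, with a trend of 0.00 log2 (SE 0.21). At E10.5 these 2 arrays overlapped the cochlear ones, and from E11 on both cochlear arrays were above both vestibular ones.

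From E12.5 the utricle with ampullae read 17 and 15, 10 and 17, 26 and 10, 22 and 15, 13 and 11, and at E15 10 and 17 for Tac1. The saccule read 33 and 22, 40 and 18, 25 and 17, 16 and 25, 31 and 22, and at E15 13 and 17. No array of either tissue reached the lowest cochlear array of these stages, 400. The trends, -0.10 log2 (SE 0.19, limma adjusted p 0.736) in the utricle and -0.36 (SE 0.19, limma adjusted p 0.162) in the saccule, were not called, where 5.04 and 4.59 percent of genes rose. The saccule averaged 0.33 log2 above the utricle (SE 0.09, limma adjusted p 0.00363), under the 1 log2 needed for a call, which 1.2 percent of genes passed in this direction.

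Outside the ear, Tac1 was higher in the late surrounding tissue than in the early one. Surrounding arrays read 12 and 15 at E9, 29 and 29 in the pool of E9.5 to E10.5, and 103 and 111 in the pool of E11 to E15. The late pool was 2.12 log2 (SE 0.23), or 4.34-fold, above E9, with a limma adjusted p of 6.02e-10, where 10.2 percent of genes were higher. In the same comparison 11 of 14 ganglion neuron markers were higher, and over the 6 surrounding arrays the summed signal of the list ran from 3830 to 27540 with a median of 22180, against 2094 to 8776 in the cochlea. The part of these markers in the Tac1 signal was not tested. The inner ear as a whole was -0.05 log2 (SE 0.16) from the late pool, where 8.15 percent of genes were higher and 7 percent lower. Values against the late pool are given without a p for the 4 genes, since the cochlear arrays that chose them are in the mean of the ear. The cochlear arrays from E11.5 on lay above the pool while the vestibular ones lay below. At E9.5 to E10.5 the ear was -0.57 log2 from its surrounding pool (SE 0.18). This value too is given without a p, since cochlear and vestibular arrays of E10.5 are in that mean.

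Besides Tac1, 12 members of the tachykinin list (17 genes of peptides, receptors and processing or degrading enzymes) were measured. Of these 12, 3 rose in the cochlea over E10.5 to E15 and 0 fell, with a median of 0.49 log2 against 0.06 over all genes, of which 8.06 percent rose and 6.89 percent fell. They were Mme, Rgs4 and Furin. Mme, neprilysin, an enzyme that degrades substance P, rose by 2.21 log2 (SE 0.18, limma adjusted p 3.29e-13). Rgs4, a brake on G protein signalling, rose by 1.24 log2 (SE 0.13, limma adjusted p 7.82e-11), and Furin, a protease of precursor proteins, by 1.17 log2 (SE 0.17, limma adjusted p 1.48e-07). From E10.5 to E12, when Tac1 rose, none of these 3 was called, at 0.70 log2 for Mme, 0.02 for Rgs4 and 0.03 for Furin. Of the 12, 1 rose in that window (background 4.04 percent) and 0 fell. It was Ece1, at 1.79 log2 (SE 0.18, limma adjusted p 9.57e-10). Ece1 also rose in the vestibular organ, by 1.12 log2 (SE 0.18, limma adjusted p 1.70e-05).

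Mme did not follow the tissue pattern of Tac1. It was 1.40 log2 (SE 0.11, limma adjusted p 3.47e-14) lower in the cochlea than in the saccule, where 2.11 percent of genes were lower. The receptors Tacr1 and Tacr2 read 35.7 to 155 and 75.2 to 215 on the cochlear arrays, and their trends of 0.67 and 0.40 log2 were not called. Tacr3, the receptor for neurokinin B, read 10 to 25.2 in the cochlea and up to 450 elsewhere. It rose by 2.39 log2 (SE 0.20, limma adjusted p 1.13e-12) in the saccule from E12.5 to E15, and by 1.17 log2 (SE 0.20, limma adjusted p 1.13e-05) in the utricle with ampullae.

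Clu rose steeply in the cochlea at E11, was highest there at E15 by its representing probe set, and rose in the saccule and the utricle at a lower level. The probe set with the highest mean, 1454849_x_at, read 199 and 86 at E10.5, 1290 and 1080 at E11, 1724 and 1348 at E11.5, and 2608 and 3030 at E12 in the cochlea. The E10.5 arrays stood far below all later ones. The fitted rise to E12 was 4.01 log2 (SE 0.35), or 16.1-fold, with a limma adjusted p of 2.96e-11. As for Tac1, these arrays are among those that chose the gene. This p, like those of Clu in the later windows, is therefore not independent of the choice.

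The step from E10.5 to E11 alone was 2.81 log2 for Clu, and it falls where the dispase time changed. In the vestibular organ the same step was 0.44 log2, and the part of the dispase time in either step was not tested. Over the 4 probe sets of Clu the step was 2.69 to 2.97 log2 in the cochlea and 0.44 to 1.09 in the vestibular organ. Within the longer dispase time Clu went on by 0.56 and 0.90 log2 to E12. Of 10 measured periotic mesenchyme markers, 2 rose in the cochlea over the same window, in which 4.04 percent of all genes rose. These were the matrix proteoglycans Dcn, 4.01 log2 (SE 0.24, limma adjusted p 6.85e-16), and Lum, 3.73 log2 (SE 0.36, limma adjusted p 3.02e-10), and the median of the list was -0.05. Both also rose in the vestibular organ, Dcn by 2.83 log2 (SE 0.24, limma adjusted p 1.84e-11) and Lum by 2.67 log2 (SE 0.36, limma adjusted p 7.93e-07). Their part in the members' signal was not tested.

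From E12.5 to E15 cochlear Clu read 2584 and 2558, 3234 and 3142, 4624 and 4074, 4813 and 5141, 5443 and 5774, and at E15 6704 and 6486. After a step of -0.33 log2 from E12 to E12.5, each stage lay above the one before it on both arrays. The trend was 1.30 log2 (SE 0.31), or 2.46-fold, with a limma adjusted p of 0.00159. The 2 arrays of E15 were the highest of all 64.

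In early ears Clu was low, at 72 and 75 in the placode, 62 and 62 in the vesicle at E9.5 and 88 and 56 at E10. The vestibular organ read 102 and 76 at E10.5, 92 and 122 at E11, 132 and 121 at E11.5, and 166 and 158 at E12. Its trend of 0.61 log2 (SE 0.35, limma adjusted p 0.245) was not called, where 2.23 percent of genes rose, although the probe set 1437689_x_at gave a called 1.22 log2. On the deposited scale the E10.5 arrays of cochlea and vestibular organ overlapped, and after normalisation both cochlear arrays were above.

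The saccule reached the next highest Clu signal. It read 137 and 173 at E12.5, 119 and 137 at E13, 900 and 170 at E13.5, 270 and 286 at E14, 530 and 400 at E14.5, and 953 and 1112 at E15. The trend was 2.53 log2 (SE 0.31), or 5.78-fold, with a limma adjusted p of 3.43e-08. The utricle with ampullae read 71 and 81, 113 and 122, 404 and 154, 192 and 183, 305 and 201, and at E15 382 and 313, with a trend of 1.75 log2 (SE 0.31), 3.36-fold, and a limma adjusted p of 3.55e-05. Averaged over the stages the saccule was 0.78 log2 above the utricle (SE 0.15, limma adjusted p 6.41e-05), short of a call.

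At E13.5 the replicate 1 arrays of both vestibular tissues stood apart for Clu. Replicate 1 exceeded replicate 2 by 2.37 log2 in the saccule and 1.27 in the utricle, against 0.19 in the cochlea. Only 5 of 9352 genes differed by over 1 log2 this way in both tissues, and besides Clu they were Tectb, Wnt7a, 4933411G06Rik and Apcs. Of the 11 cochlear markers, 1 in the utricle and 2 in the saccule were over 1 log2 higher in replicate 1, and over all genes 14 and 28 of 9352 were. In the saccule 4 of 6 red blood cell markers were over 1 log2 lower in replicate 1 (median -1.79), where 54 of 9352 genes were. So were 1 of 10 periotic mesenchyme markers (median -0.57), 1 of 14 ganglion neuron markers and 1 of 4 macrophage markers. Of 7 melanocyte and glia markers, 1 was over 1 log2 higher in the saccule. In the utricle 1 of 6 red blood cell markers was lower by over 1 log2, where 26 of 9352 genes were. The part of other tissues in these pools was not tested. Without the 3 replicate 1 arrays of E13.5 each call of the 4 genes stayed the same.

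Around the ear Clu read 69 and 70 at E9, 59 and 49 in the E9.5 to E10.5 pool, and 124 and 121 in the E11 to E15 pool. The inner ear was 2.41 log2 (SE 0.27), or 5.32-fold, above the late pool, and 0.17 log2 from the earlier one (3.72 percent of genes higher, 4.68 percent lower). Every cochlear array from E11 on was above the late pool, while vestibular organ arrays of E11 and E11.5 overlapped it.

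The 4 Clu probe sets gave like patterns. The group means of the other 3 correlated at 0.995 to 0.998 with those of 1454849_x_at over the 32 groups. Their highest signals were 3758 for 1418626_a_at, 5448 for 1437458_x_at and 4974 for 1437689_x_at, all from the same RNA pools. Their cochlea minus utricle differences were 4.38, 4.67 and 4.90 log2, against 4.46. The last cochlear step, from E14.5 to E15, was -0.08 log2 by 1418626_a_at, against 0.22 by 1454849_x_at.

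Besides Clu, 12 genes of the list of clusterin partners and lipoproteins (19 listed) were measured, and 3 of them rose in the cochlea over E10.5 to E15 (background 8.06 percent) while 0 fell, with a median of 0.49 log2. They were Lrp2, megalin, an endocytic receptor that binds clusterin, which rose by 2.88 log2 (SE 0.12, limma adjusted p 2.75e-22), Ptgds and A2m. Ptgds, a secreted lipid carrier and prostaglandin synthase, rose by 2.06 log2 (SE 0.21, limma adjusted p 6.59e-11), and A2m, a secreted protease inhibitor, by 1.45 log2 (SE 0.17, limma adjusted p 1.45e-09). Lrp2 was 2.31 log2 (SE 0.07, limma adjusted p 9.18e-27) higher in the cochlea than in the saccule, but it was 0.20 log2 lower than in the utricle with ampullae (SE 0.07, limma adjusted p 0.0286), short of a call. Its own trend from E10.5 to E12, when Clu rose, was -0.28 log2 (SE 0.16, limma adjusted p 0.21).

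**Figure D2:**
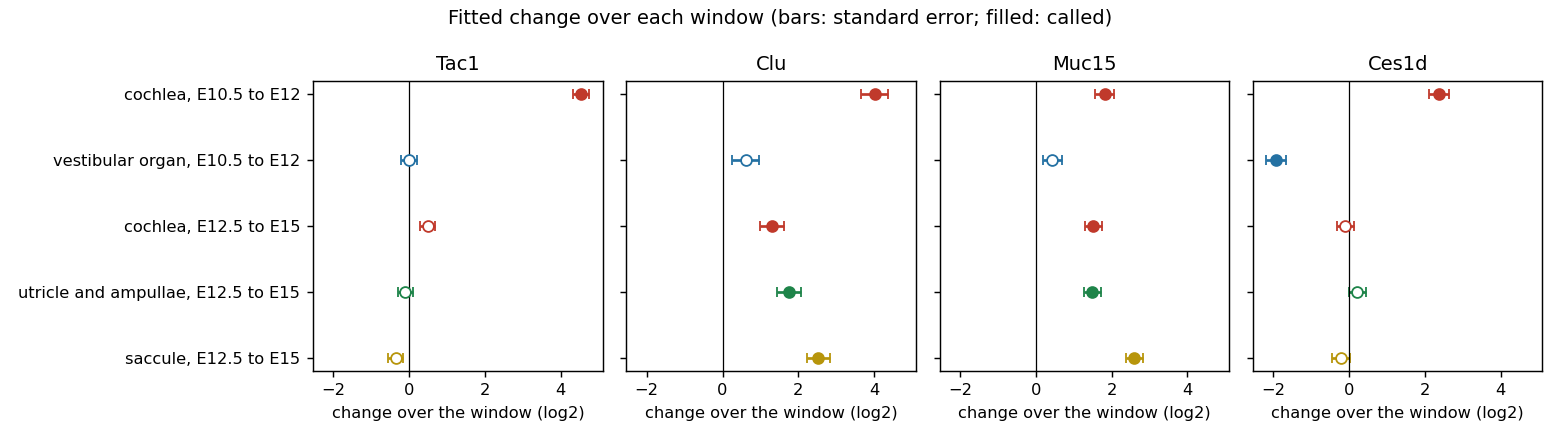
Fitted change in log2 of the 4 genes over 5 tissue windows, with bars of 1 standard error and filled points for called changes. Clu and Muc15 rise in the cochlea, utricle and saccule from E12.5 to E15, whereas of these windows Tac1 and Ces1d are called only within E10.5 to E12.

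Muc15 rose early in the cochlea and later in all 3 ear tissues. Cochlear signal was 63 and 57 at E10.5, 152 and 179 at E11, 181 and 160 at E11.5, and 292 and 327 at E12. The rise was 1.82 log2 (SE 0.25), or 3.54-fold, with a limma adjusted p of 7.03e-07. Of it, 1.27 log2 fell on the step from E10.5 to E11, the E11 and E11.5 arrays overlapped, and the step to E12 was 0.79 log2. These arrays too are among those that chose the gene. The p of this rise, like those of Muc15 in the later windows, is not independent of the choice.

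From E12.5 to E15 cochlear Muc15 read 247 and 173, 264 and 256, 303 and 250, 356 and 401, 356 and 427, and at E15 640 and 797. The E15 arrays were the highest of all 64, with the last step at 0.83 log2. The trend was 1.52 log2 (SE 0.22), or 2.87-fold, with a limma adjusted p of 1.28e-06.

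In the saccule Muc15 read 53 and 13 at E12.5, 73 and 27 at E13, 82 and 51 at E13.5, 188 and 168 at E14, 128 and 141 at E14.5, and 306 and 250 at E15. The trend was 2.59 log2 (SE 0.22), or 6.04-fold, with a limma adjusted p of 4.66e-12. The arrays of E14 and later lay above all earlier ones. Over the same days 7 of 9 hair cell markers rose in the saccule and 5 of 9 in the utricle with ampullae, against 3 of 9 in the cochlea, where 4.59, 5.04 and 3.42 percent of all genes rose. Of the 9, Lhx3 fell in the cochlea (-1.11 log2, SE 0.20, limma adjusted p 5.78e-05). Their part in the Muc15 signal was not tested.

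The utricle with ampullae read 23 and 17, 38 and 16, 50 and 41, 37 and 52, 73 and 74, and at E15 87 and 81 for Muc15. The trend was 1.48 log2 (SE 0.22), or 2.80-fold, with a limma adjusted p of 2.09e-06, and at a pseudocount of 64 it was 0.81 log2 and not called. The saccule was on average 0.89 log2 above the utricle (SE 0.11, limma adjusted p 1.05e-08), short of a call, and at E12.5 and E13 their arrays overlapped.

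Before the cochlea formed, Muc15 was at or near the floor. Both placode arrays read 10, and the vesicle read 18 and 22 at E9.5 and 15 and 14 at E10. The vestibular organ read 10 and 10, 22 and 18, 17 and 15, and at E12 29 and 27, a trend of 0.43 log2 (SE 0.25, limma adjusted p 0.251) that was not called. All 6 surrounding arrays read 10. The inner ear of E11 to E15 was 2.45 log2 above the surrounding pool (SE 0.19), a difference that depends on the added 16 because the pool is at the floor.

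Besides Muc15, 9 mucins and related genes (17 listed) were measured, and 1 of them rose in the cochlea over E10.5 to E15 (background 8.06 percent) while 0 fell, with a median of 0.49 log2. It was Gcnt1, an enzyme that branches the sugar chains of mucins, which rose by 1.19 log2 (SE 0.14, limma adjusted p 4.12e-09). In the saccule 1 of the 9 rose from E12.5 to E15 (background 4.59 percent), the gel-forming mucin Muc5ac (1.25 log2, SE 0.32, limma adjusted p 0.00287). In the utricle with ampullae, where 2 of the 9 rose (background 5.04 percent), Muc5ac also rose (1.98 log2, SE 0.32, limma adjusted p 8.58e-06), as did Podxl (1.74 log2, SE 0.24, limma adjusted p 5.15e-07), a sialomucin of the apical membrane.

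Ces1d moved in opposite directions in the cochlea and the vestibular organ. Its probe set with the highest mean, 1435370_a_at, read 91 and 32 in the cochlea at E10.5, 218 and 199 at E11, 343 and 313 at E11.5, and 356 and 427 at E12. The rise was 2.36 log2 (SE 0.26), or 5.14-fold, with a limma adjusted p of 7.43e-09. In the vestibular organ it read 334 and 313 at E10.5, 249 and 250 at E11, 213 and 245 at E11.5, and 63 and 72 at E12. The fall was -1.93 log2 (SE 0.26), a fold of 0.263, with a limma adjusted p of 9.09e-07, where 1.79 percent of genes fell. Cochlear and vestibular arrays chose the gene, so neither p is independent of the choice.

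So Ces1d was lower in the cochlea than in the vestibular organ at E10.5 and E11 and higher at E11.5 and E12, with no overlap of arrays at any of the 4 stages. The differences were -1.99, -0.12, 0.75 and 2.48 log2. In the vestibular organ 1.52 log2 of the fall came between E11.5 and E12, both under the longer dispase time. In the cochlea 1.62 log2 of the rise came between E10.5 and E11, where the dispase time changed, and 0.59 and 0.22 log2 after it.

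From E12.5 on cochlear Ces1d held its level, at 308 and 312, 305 and 339, 268 and 287, 168 and 253, 287 and 278, and at E15 442 and 256. The trend was -0.10 log2 (SE 0.23, limma adjusted p 0.813). Replicate 1 at E14 was the lowest of these arrays and replicate 1 at E15 the highest. Over E10.5 to E15 as a whole the fitted change was 0.97 log2. Over the same days Tac1 changed by 3.92, Clu by 3.94 and Muc15 by 2.27. These 4 values are given without a p. This slope spans both windows, so the high cochlear level at E12.5 to E15, for which the genes were chosen, enters it directly. Over E11 to E15, within the longer dispase time, the change was -0.03 log2 (SE 0.20) for Ces1d. It was 2.47 for Tac1, 2.24 for Clu and 1.60 for Muc15, also given without a p.

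In the utricle with ampullae Ces1d read 10 and 24, 24 and 22, 23 and 16, 16 and 24, 12 and 19, and at E15 38 and 24. The saccule read 57 and 34, 54 and 49, 37 and 30, 12 and 42, 27 and 32, and at E15 36 and 66. Neither trend was called, at 0.22 log2 (SE 0.23) and -0.22 log2 (SE 0.23). The highest of these 24 arrays, 66, was below the lowest cochlear array of the same days, 168, and at 0.57 log2 above the utricle (SE 0.11, limma adjusted p 7.77e-05) the saccule was short of a call.

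Unlike the other 3 genes, Ces1d rose before the cochlea could be dissected. It read 46 and 47 in the placode at E9, 27 and 29 in the vesicle at E9.5, and 105 and 119 at E10. E10 was 1.00 log2 (SE 0.27), or 2.00-fold, above E9, at a limma adjusted p of 0.00688, where 3.73 percent of genes were higher. That change lies at the threshold. The call was lost at a pseudocount of 64, with the other probe sets, and without replicate 1 of the placode (0.99 log2) or replicate 2 of E10 (0.90 log2). The corresponding values were 0.10 for Tac1, -0.08 for Clu and 0.11 for Muc15, and none was called.

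Surrounding arrays read 10 and 10 at E9, 11 and 10 in the E9.5 to E10.5 pool, and 10 and 10 in the E11 to E15 pool for Ces1d, so all 6 lay at or next to the floor. The ear was higher by 1.07 log2 at E9 (SE 0.27, limma adjusted p 0.0045, 2.71 percent of genes higher). Given without a p, it was higher by 1.72 log2 at E9.5 to E10.5 (SE 0.22) and by 2.51 at E11 to E15 (SE 0.20). These sizes depend on the added 16. With 64 added the value at E9 was 0.47 log2 and not called, and that at E9.5 to E10.5 was 0.95. Each of the 58 ear arrays but 1, a utricle array at E12.5, was above 10.

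The 3 Ces1d probe sets did not behave alike. The group means of 1435371_x_at correlated at 0.996 with those of 1435370_a_at, whereas those of 1449081_at correlated at 0.62. The latter ranged only from 10 to 88.4 and reached the array median on 2 of 64 arrays. Its cochlea minus vestibular differences were 0.48, 0.37 and 0.34 log2, and both cochlear arrays were above at 3 of 4, 3 of 6 and 3 of 6 stages. It gave no rise from E9 to E10 (-0.42 log2) and a vestibular organ trend of -0.14. The suffix of 1435371_x_at marks probes that can read other sequences, and the Ces1 genes are close paralogs, so which of them these probe sets read is uncertain.

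**Figure D3:**
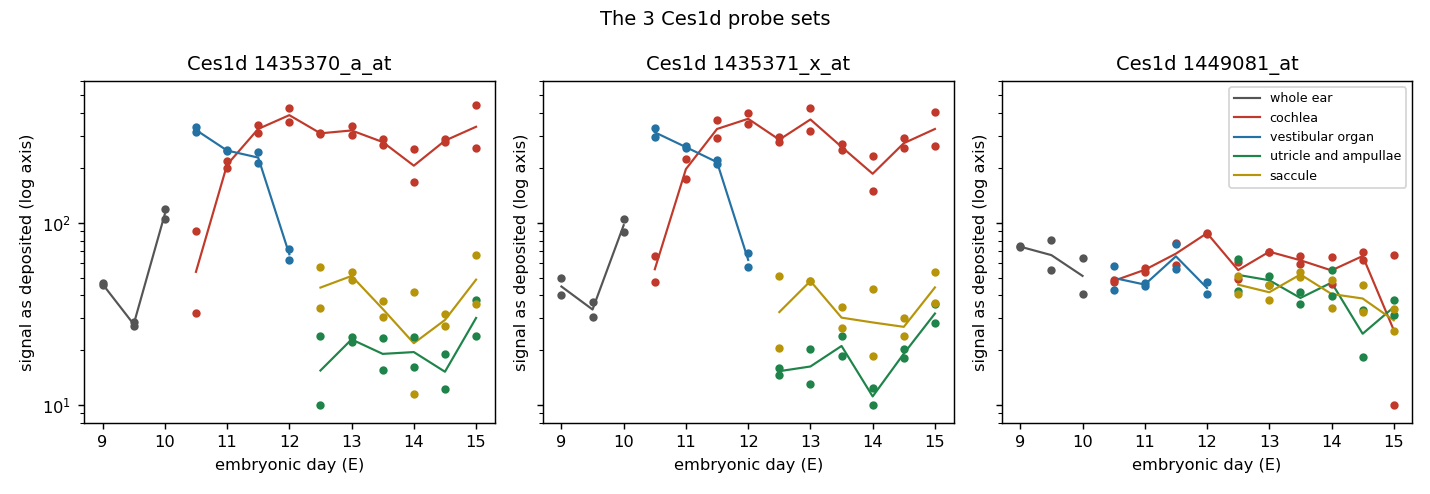
Deposited signal (log axis) of the 3 Ces1d probe sets against embryonic day in the ear tissues, with 1 point per array and lines through the geometric mean of each group. The first 2 panels share the crossing of cochlea and vestibular organ near E11, and the third, 1449081_at, stays between 10 and 88.4 in all tissues.

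Besides Ces1d, 6 carboxylesterases and lipid hydrolases (24 listed) were measured. From E10.5 to E12, 0 of them rose in the cochlea (background 4.04 percent) and 0 fell in the vestibular organ (background 1.79 percent). Their medians were -0.01 and -0.12 log2. In the inner ear of E9.5 to E10.5, 1 of the 6 was higher than in the surrounding tissue (background 3.72 percent). It was Ces1f, a paralog of Ces1d (1.64 log2, SE 0.28, limma adjusted p 1.07e-05). Ces1f read 74.1 to 248 on the cochlear arrays.

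**Figure D4:**
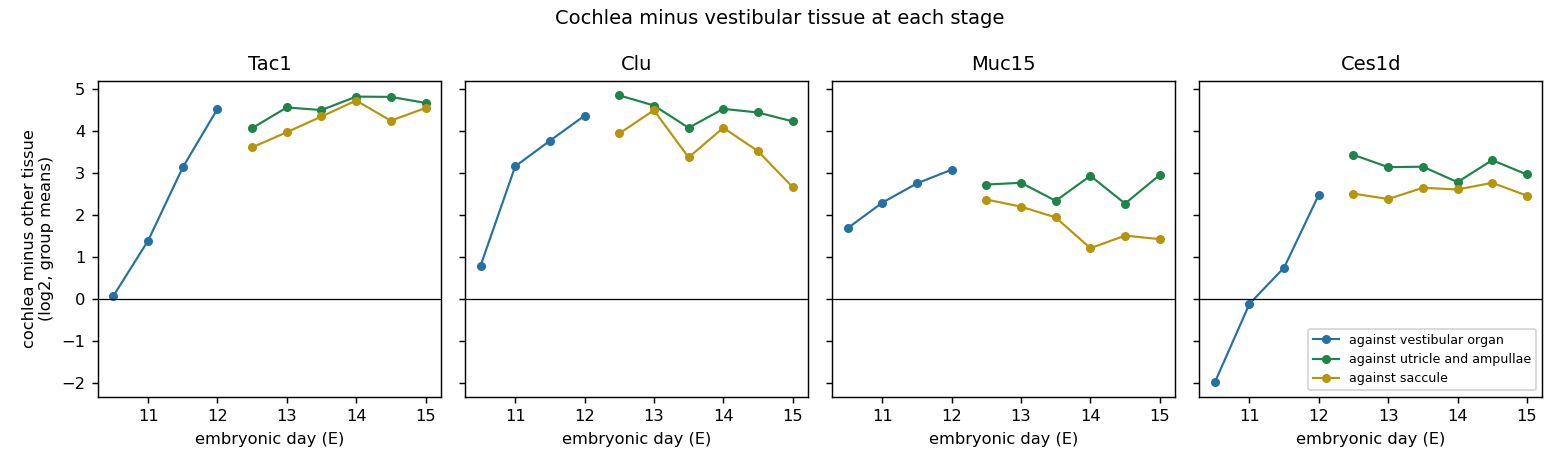
Difference of cochlea minus vestibular organ (E10.5 to E12), utricle with ampullae and saccule (E12.5 to E15) in log2 group means at each stage, with no test because this difference chose the genes. All 4 genes widen from E10.5 to E12, Ces1d from below 0, and the differences from the saccule narrow for Clu and Muc15 and not for Tac1.

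Stage by stage, the cochlea drew away from the vestibular organ in each of the 4 genes. From E10.5 to E12 the difference went from 0.07 to 1.39, 3.14 and 4.53 log2 for Tac1, from 0.79 to 3.16, 3.77 and 4.37 for Clu, and from 1.69 to 2.29, 2.75 and 3.08 for Muc15. At E10.5 the cochlear arrays of Muc15 were already above both vestibular organ arrays, deposited or normalised. Both cochlear arrays were above both vestibular organ arrays at 4 of 4 stages for Clu and Muc15, 3 for Tac1 and 2 for Ces1d, where 6.79 percent of genes were above at every stage.

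Against the later vestibular tissues the representing probe sets of all 4 genes were above at 6 of 6 stages, where 2.71 percent of genes were so against the utricle with ampullae and 5.37 percent against the saccule. Nothing is read from these counts, because the same difference chose the genes. The mean differences from the utricle were 4.57 log2 for Tac1, 4.46 for Clu, 2.66 for Muc15 and 3.13 for Ces1d. From the saccule they were 4.24, 3.68, 1.77 and 2.56 log2. From the vestibular organ they were 2.28, 3.02, 2.45 and 0.28 log2. Since the utricle arrays of Tac1 read 10 to 26, its difference from the utricle depends on the added 16, and it was 5.54 log2 with 1 added and 3.31 with 64.

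The distance from the saccule narrowed for the genes that rose there. For Clu it went from 3.94 log2 at E12.5 to 2.67 at E15, and for Muc15 from 2.37 to 1.42. For Tac1 it was 3.61 at E12.5 and between 3.97 and 4.73 later, and for Ces1d it kept between 2.38 and 2.77.

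Ordered by level over the 32 groups, cochlear groups led for each gene, but most neighbours overlapped. Arrays of neighbouring groups overlapped in 25 of 31 pairs for Tac1, 17 for Clu, 23 for Muc15 and 24 for Ces1d. The first 8 places for Tac1 were cochlea, from E14 at 9.91 log2 down to E11.5, and the late surrounding tissue at 7.09 came before the cochlea of E11 at 6.36. For Clu the first 9 places were cochlea, with E15 first and E11 last, followed by the saccule of E15. For Muc15 cochlea of E15 led at 9.54 log2 and the saccule of E15 was 7th, while 5 groups lay at the floor on both arrays. For Ces1d cochlea of E12 led at 8.73 log2 and the vestibular organ of E10.5 was 6th at 8.29.

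The genes with the most similar pattern were found by Pearson's r of log2 group means over the 32 groups, which share arrays, stages and normalisation. For Tac1 these were Rasgrf1 (0.94), Scara3 (0.93), Edn1 (0.93), Fam184b (0.89) and Shroom1 (0.89). For Clu they were Muc15 (0.95), Shroom1 (0.93), Scara3 (0.90), Edn1 (0.90) and Car13 (0.89), and for Muc15 they were Clu (0.95), Atp1b1 (0.95), Tmprss3 (0.91), Ecel1 (0.88) and Hey2 (0.87). For Ces1d they were Gata3 (0.85), Epha7 (0.83), Slc39a8 (0.81), Cuedc2 (0.81) and Ddc (0.80). Among the 4 genes the other values were 0.89 for Tac1 with Clu, 0.77 for Tac1 with Muc15, 0.71 for Tac1 with Ces1d, 0.69 for Clu with Ces1d and 0.59 for Muc15 with Ces1d.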

How the data were processed

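Per the submitters' processing notes, MAS5 produced the intensities that the authors deposited for each probe set. Its version and scaling are not stated in the labels read here. Each array has a floor of 10. It holds 9.81 to 12.04 percent of the values on the E11 arrays and 5.43 to 8.63 percent on all others. The part of this difference in the steps to and from E11 was not tested. Trimmed means of the arrays differed 1.581-fold, so signals were quantile normalised and taken as log2(signal + 16). Of 22626 probe sets, 20380 had 1 gene symbol, 691 several and 1555 none. Those with 1 symbol and at least 2 arrays at or above the array median were kept (14014), and the one with the highest mean stood for each of 9352 genes.

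A single limma 3.58.1 model in R 4.3.3 with 32 group means was fitted to 64 arrays (32 residual degrees of freedom), with a mean-dependent prior variance, and checked on simulated data. P-values are two-sided, adjusted by Benjamini-Hochberg over all genes, and reflect how far pools from different litters vary. With 2 arrays per group the precision of a single stage is limited. Inner ear against surrounding tissue weights cochlea and vestibular tissue equally, but it uses the same cochlear arrays from E10.5 on.

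The genes and the lists were chosen with earlier results of these data known. The rule for naming took all 4 genes, up to 3 genes of each list with the largest called change in the cochlea over E10.5 to E15, the 5 most similar genes, and markers called beside a gene. Furin, Ece1, A2m, Irx3, Irx5, Lhx3, the tachykinin receptors, Muc5ac, Podxl, Ces1f and the genes that stood apart at E13.5 were named after their values were seen. Alternatives were pseudocounts of 1 and 64, other filters, deposited values, other probe sets, array weights, the groups of a comparison alone, a replicate block, and leaving out arrays or stages.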

Additional observations from a re-analysis of the deposited data

Results flagged for a closer look

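Ces1d changed in opposite directions in 2 tissues over the same stages. Every cochlear array of E11 to E12 was above both cochlear arrays of E10.5, and the trend was 2.36 log2. Every vestibular organ array of E11 to E12 was below both of its arrays of E10.5, and the trend was -1.93 log2. The difference between these trends was not tested. The probe set 1449081_at showed a smaller rise, 0.63 log2, and a vestibular organ trend of -0.14 log2.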

How the results depend on the processing

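No alternative reversed a call of the representing probe sets. Deviations of equally numbered arrays correlated over 0.1 in 19 of 23 pairs (-0.50 to 0.57). Not every pair did (the exceptions are at E10.5, E11 and E15), and the fit without a block was kept. The labels do not say whether equal numbers share litters. At E14 the pool sizes of cochlea, utricle with ampullae and saccule matched by number, 10 in replicate 1 and 13 in replicate 2. A shared origin of equally numbered pools therefore remains possible. The 2 fits with a replicate block (consensus correlation 0.244 for the random one) changed no call, nor did array weights, other filters, the groups of a comparison alone, or leaving out the replicate 1 arrays of E13.5.

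The Ces1d cochlea trend over E10.5 to E15 (0.97) was 1.10 at pseudocount 1, 1.04 as deposited, 1.05 without E11 and 1.13 without E14. It was 0.68 to 1.26 when single arrays were left out. Over E11 to E15 only, within the longer dispase time, it was -0.03 (SE 0.20). No call is drawn from the Ces1d trend over E10.5 to E15. The level of its later arrays, by which the gene was chosen, enters this slope directly. The rise of Ces1d from E9 to E10 ran from 0.90 to 1.11, and 2 of 4 fits lost the call.

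With pseudocount 1 the saccule minus utricle difference of Muc15 was called at 1.07, and 203 genes were called between cochlea and vestibular organ. Differences from vestibular organ, utricle and saccule became 2.89, 5.54 and 4.95 for Tac1, 3.21 and 3.08 (first pair) for Muc15, and 3.87 and 3.00 (last pair) for Ces1d. With pseudocount 64 they were 1.52, 3.31 and 3.17 for Tac1, 1.53, 1.97 and 1.36 for Muc15, and 2.11 and 1.83 (last pair) for Ces1d. It ended the calls of Ces1d against surrounding tissue at E9 (0.47) and from E9 to E10 (0.62), and of Muc15 in the utricle (0.81). Ces1d against surrounding tissue at E9.5 to E10.5 was 0.95.

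Counts of called genes at pseudocount 64 were 913 for the cochlea over E10.5 to E15 (1398 otherwise), 379 for E10.5 to E12 (673) and 382 for E12.5 to E15 (589). They were 204 for the vestibular organ (376), 425 for the utricle (704), 419 for the saccule (662), 260 for E9 to E10 (495) and 161 for saccule against utricle (254). Against surrounding tissue they were 275 at E9 (555), 456 at E9.5 to E10.5 (786) and 908 at E11 to E15 (1417), and for cochlea against vestibular organ, utricle and saccule 63, 188 and 208 (132, 287, 353). With deposited values 218 genes were called between cochlea and vestibular organ and 986 at E9 against surrounding tissue. Tested alone, probe sets gave 530 calls for cochlea against saccule, 1036 and 2166 for the cochlea over E10.5 to E12 and to E15, 846 at E9 against surrounding tissue, 2919 for late against early surrounding tissue, 1063 in the utricle, 570 in the vestibular organ and 760 from E9 to E10.

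Ces1d by 1449081_at gave 0.34 and 0.37 against saccule and utricle, 0.63 in the cochlea to E12, 0.81, 0.34 and 0.59 against surrounding tissue at E11 to E15, E9 and E9.5 to E10.5, -0.14 in the vestibular organ and -0.42, reversed, from E9 to E10. By 1435371_x_at the E9 and E9 to E10 values fell to 0.95 and 0.86. Clu by 1437689_x_at was 4.90 above the utricle and was called for saccule against utricle (1.10) and in the vestibular organ (1.22). Without E11, Tac1 was 2.58 above the vestibular organ.

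Scaling moved the median gene by over 0.1 log2 in some comparisons. As deposited it was 0.24 for the cochlea over E10.5 to E15 (0.06 normalised), 0.32 for the ear against surrounding tissue at E9 (-0.05) and -0.27 for cochlea against vestibular organ (-0.01).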
